A study of Homo sapiens with 2 samples.

Results

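The stem cell genes *HLF*, *MECOM*, *MLLT3*, *SPINK2*, *AVP*, *CRHBP*, *MSI2* and *HMGA2* were followed through single cells of an endothelial-to-hematopoietic transition (EHT) culture. These 8 genes were chosen by symbol, and all 8 were found among the 32738 genes of the count table. Human iPS11 cells, an induced pluripotent stem cell line, had been differentiated, enriched for CD34+ cells and cultured on plates that were uncoated or coated with VCAM1, with DLL4, or with DLL4 and VCAM1 together. On day 5 the nonadherent cells of 3 wells per coating were pooled, stained with 1 of 4 hashtag antibodies per coating and combined into 1 droplet library. The labels and tables used here do not give which hashtag marks which coating, so groups are called hashtags 0252, 0253, 0254 and 0255. All 4 groups shared the line, the enrichment and the day, and a single line and a single run limit them as a model.

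Of 10836 barcodes, 8488 were called for a single hashtag, and 7550 of these had at most 36000 unique molecular identifiers (UMIs, each a captured transcript molecule), at most 6000 genes and at most 18% mitochondrial UMIs. Hashtags 0252, 0253, 0254 and 0255 marked 2136, 1996, 1847 and 1571 of these cells, with between 28522216 and 40416478 UMIs each and a median of 18318.5 UMIs per cell over all. Because there was 1 library and no replicate, no p-value is given, and every interval is a 95% interval that covers counting error only. Cells at equal depth are the 7482 cells reduced at random to 5000 UMIs each, which left out 68 shallower cells. Levels are in CPM (UMIs of a gene per 1000000 UMIs), summed over the cells of a group.

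Blood stem cells arise in the embryo from hemogenic endothelium, whose cells round up and enter the circulation during EHT. Stem cells are rare and are kept by a small set of transcription and chromatin regulators, while the progenitors made earlier and alongside them share many of the same surface markers, CD34 among them. *HLF* encodes a PAR bZIP transcription factor and *MECOM* the zinc finger factor EVI1, both used to mark stem cells. *MLLT3* encodes a chromatin reader of the super elongation complex. *MSI2* encodes an RNA-binding protein and *HMGA2* a chromatin protein of fetal stem cells. *SPINK2*, *AVP* and *CRHBP* encode secreted proteins, a protease inhibitor, the vasopressin precursor and a corticotropin-releasing hormone binding protein, whose transcripts are used to mark stem and early progenitor cells in single-cell maps.

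The promoter sequences of the 4 genes that were found at least 1.5 times more often in CD34-positive cells are shown for reference, as the 250 bases before the first start listed by RefSeq on GRCh38.p14, written 5′ to 3′ on the strand of the gene. Capitals mark matches on either strand to the core letters of a GATA site (GATAA), of an ETS factor site (CCGGAA) or of a RUNX site (TGTGGT).
MECOM promoter (chr3:169663713-169663962, minus strand): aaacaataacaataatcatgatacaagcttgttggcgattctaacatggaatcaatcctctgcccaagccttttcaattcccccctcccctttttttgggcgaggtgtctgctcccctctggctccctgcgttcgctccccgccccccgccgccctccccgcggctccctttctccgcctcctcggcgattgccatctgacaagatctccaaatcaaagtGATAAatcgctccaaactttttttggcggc
MLLT3 promoter (chr9:20622500-20622749, minus strand): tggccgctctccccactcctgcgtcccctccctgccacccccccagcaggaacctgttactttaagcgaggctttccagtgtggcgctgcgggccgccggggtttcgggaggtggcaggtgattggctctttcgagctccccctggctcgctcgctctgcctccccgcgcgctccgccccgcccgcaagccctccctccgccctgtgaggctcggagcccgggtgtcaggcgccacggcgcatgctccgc
SPINK2 promoter (chr4:56821870-56822119, minus strand): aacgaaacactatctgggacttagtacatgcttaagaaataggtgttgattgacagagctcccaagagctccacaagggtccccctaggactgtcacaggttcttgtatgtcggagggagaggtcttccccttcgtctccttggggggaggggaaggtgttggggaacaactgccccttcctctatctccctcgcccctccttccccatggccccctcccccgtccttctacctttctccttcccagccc
AVP promoter (chr20:3084725-3084974, minus strand): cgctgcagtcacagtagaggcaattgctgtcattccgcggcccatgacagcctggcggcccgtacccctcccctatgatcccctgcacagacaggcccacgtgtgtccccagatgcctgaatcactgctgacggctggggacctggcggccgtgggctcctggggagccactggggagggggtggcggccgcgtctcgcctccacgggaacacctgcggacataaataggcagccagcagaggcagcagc
In the *MECOM* window, 1 GATAA match began 30 bases before the start, and GATAA was present in 20.4% of all 35116 promoter windows. The *MLLT3* and *AVP* windows and the *SPINK2* window shown held no match to these letters. CCGGAA was present in 14.5% and TGTGGT in 11% of all windows. These are matches of letters and not measured sites. Of the 8 genes, 7 had an entry in the promoter table; *HMGA2* was not matched.

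Detection differed widely among the 8 genes. *MSI2* (chr17:55333212-55762050 on hg19) was the most abundant, with 11176 UMIs and 78.6 CPM (77.2 to 80.1), and was present in 4626 cells, or 61.3%. *SPINK2* (chr4:57676026-57687908) followed with 8731 UMIs and 61.4 CPM (60.2 to 62.7), in 34.3% of cells. *HMGA2* (chr12:66218240-66360071) had 4005 UMIs and 28.2 CPM (27.3 to 29.1), in 35.5% of cells. The order of CPM and the order of cells with a UMI thus differed for *SPINK2* and *HMGA2*: 652 cells held 5 or more UMIs of *SPINK2*, up to 29, whereas 49 cells held 5 or more of *HMGA2*.

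The transcripts of *MECOM* and *MLLT3* were sparse per cell, although their CPM exceeded that of 73.9% and 74.1% of genes with any UMI. *MECOM* (chr3:168801287-169381563) had 2436 UMIs, 17.1 CPM (16.5 to 17.8), in 24.6% of cells. *MLLT3* (chr9:20341667-20622498) was close to it, with 2474 UMIs, 17.4 CPM (16.7 to 18.1), in 25.3% of cells, and their intervals overlapped. In 76.6% of *MECOM* cells and 77.7% of *MLLT3* cells the gene was represented by a single UMI, so a cell without a UMI was not shown to lack either transcript.

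*HLF* (chr17:53342321-53402548) was found as 156 UMIs in 131 of 7550 cells, or 1.74% (1.45 to 2.06), at 1.10 CPM (0.932 to 1.28). A single UMI accounted for *HLF* in 112 of the 131 cells, and the highest cell held 5. *CRHBP* (chr5:76248870-76276983) was rarer still, with 79 UMIs in 47 cells and 0.556 CPM (0.440 to 0.693). The 10 highest *CRHBP* cells held 53.2% of its UMIs, against 2.13% for *MECOM*. *AVP* (chr20:3063202-3065370) stood at 23.1 CPM (22.3 to 23.9), with 3277 UMIs in 19.1% of cells and up to 21 UMIs in one cell.

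At equal depth the shares fell for all 8 genes. *HLF* was found in 40 of 7482 cells, or 0.535% (0.382 to 0.727), and *CRHBP* in 15, or 0.200% (0.112 to 0.330). *MECOM* was found in 7.52%, *AVP* in 7.63% and *MLLT3* in 7.83%, and these 3 shares had overlapping intervals. *HMGA2* was found in 12.0%, *SPINK2* in 17.9% and *MSI2* in 28.9% of cells. *CD34*, which encodes the surface sialomucin used to enrich the starting cells, was found in 2581 cells, or 34.5%.

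**Figure D1:**
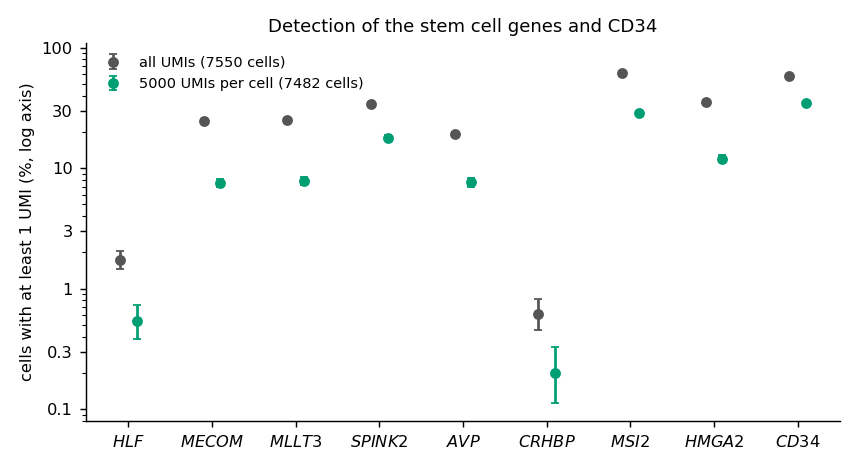
Share of cells with at least 1 UMI of each gene, in percent on a log axis, at all UMIs (gray, 7550 cells) and at 5000 UMIs per cell (green, 7482 cells), with exact 95% binomial intervals. HLF and CRHBP lie below 2% of cells at either depth, and every gene is found in fewer cells at equal depth.

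The comparison of CD34-positive with CD34-negative cells asked how often a stem cell gene and *CD34* were captured in one cell at equal depth. CD34-positive cells held a *CD34* UMI at this depth and CD34-negative cells held none. At all UMIs *CD34* was found in 4392 of 7550 cells, or 58.2%, so a CD34-negative cell was not shown to lack the transcript. The paper describes surface CD34 by flow cytometry as nearly ubiquitous, so the groups are classes of capture and not of surface CD34. Of the 6 genes with at least 200 UMIs, *MECOM*, *MLLT3*, *SPINK2* and *AVP* were found at least 1.5 times more often in the 2581 CD34-positive cells than in the 4901 CD34-negative cells. Across all 12271 genes with as many UMIs, 546 passed the same ratio, a background of 4.45%. *HLF* and *CRHBP* were below the UMI minimum, and *MSI2* and *HMGA2* lay under a ratio of 1.5.

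*SPINK2* was present in 25.8% of CD34-positive and 13.7% of CD34-negative cells, a ratio of 1.89 (1.71 to 2.08). *AVP* was present in 10.8% and 5.94%, a ratio of 1.83 (1.56 to 2.14). *MLLT3* was present in 10.8% and 6.26%, a ratio of 1.73 (1.48 to 2.01). For these genes, and for *MECOM* and *MSI2*, the intervals of the shares did not overlap. *MECOM* was present in 10.0% and 6.22%, a ratio of 1.61 (1.37 to 1.88). *MSI2* was present in 34.9% and 25.7%, a ratio of 1.36 (1.26 to 1.46). *HMGA2* was found at nearly the same share in both, 12.2% and 11.9%, with a ratio of 1.03 (0.908 to 1.17). For *HLF*, 17 CD34-positive cells (0.659%) and 23 CD34-negative cells (0.469%) held a UMI, and the ratio of 1.40 had an interval from 0.751 to 2.62. With another random draw of 5000 UMIs per cell the *HLF* ratio was 2.27. *CRHBP* was found in 4 CD34-positive and 11 CD34-negative cells, a ratio of 0.691 (0.220 to 2.17). In the first draw the intervals of both rare genes held a ratio of 1, and the *HLF* ratio changed with the draw.

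The ratio was recomputed within each hashtag. For *SPINK2* it was 2.06, 1.76, 2.01 and 1.82 in hashtags 0252 to 0255. For *MECOM* it was 1.48, 1.94, 1.68 and 1.43. Both genes were found more often in CD34-positive cells in all 4 hashtags. For *MLLT3* it was 2.20, 1.80, 1.56 and 1.30, and the lowest had an interval from 0.922 to 1.83. The *AVP* ratio was 1.26, 2.14, 1.67 and 2.84, and its interval in hashtag 0252 (0.930 to 1.72) did not reach that of hashtag 0255 (2.05 to 3.93). The *MSI2* ratio was 1.60, 1.45, 1.29 and 1.25.

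Other stem and progenitor genes showed the same ratio in part. Of 28 on a list of such genes, 23 had at least 200 UMIs and 12 of these were at least 1.5 times more frequent in CD34-positive cells, with none as far below. The list's median ratio was 1.54, against 0.999 over all genes. *GPR56*, an adhesion receptor of stem cells, had the highest ratio, 3.11, followed by the endothelial sialomucin gene *EMCN* with 3.09 and *HOPX* with 2.69. The homeobox genes *HOXA10*, *HOXA9* and *MEIS1* stood at 2.40, 2.16 and 1.77, the ETS factor gene *ERG* at 1.90, *TAL1* at 1.71 and *GATA2* at 1.54. The growth factor gene *ANGPT1* stood at 2.00, and the surface protein genes *PROCR* and *THY1* at 1.67 and 1.60. *HHEX*, *LMO2* and *RUNX1* had the lowest ratios, 0.957, 0.969 and 1.08. Of 23 paralogs and partners of the members, 10 had enough UMIs, and none reached 1.5 in either direction. Over all genes 4.45% were as far higher and 8.79% as far lower, so none of 10 is near the background. *IGF2BP2* was highest at 1.08, before *HMGA1*, the paralog of *HMGA2*, at 1.02 and *DBP*, the PAR bZIP relative of *HLF*, at 0.992. *HMGA1* was found in 97.0% of CD34-positive and 94.7% of CD34-negative cells, so its ratio could not have reached 1.5. *AFF4*, a scaffold of the complex that *MLLT3* joins, was lowest at 0.857, after *NFIL3* and *IGF2BP3*, both at 0.886. The remaining 13 had under 200 UMIs, too few for a ratio. *MSI1*, the paralog of *MSI2*, had 10 UMIs in all cells, and *PRDM16*, the paralog of *MECOM*, had 41. The vasopressin receptor genes *AVPR1A* and *AVPR2* had 6 and 7 UMIs and *OXT*, the oxytocin gene beside *AVP*, had 177. *CRH*, the hormone bound by the *CRHBP* product, had 0 UMIs, and its receptor gene *CRHR1* had 22.

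Genes of other lineages were unevenly spread between these cells, and their part in the ratios was not tested. All 7 macrophage genes with enough UMIs and 7 of 10 neutrophil genes were at least 1.5 times less frequent in CD34-positive cells, with median ratios of 0.239 and 0.507, where 1079 of all 12271 genes, or 8.79%, were as far lower. The same held for 6 of 8 stromal and 3 of 7 lymphoid genes. Of 7 mast, basophil and eosinophil genes, 2 were that far higher and 2 that far lower. All 3 endothelial genes with enough UMIs, 5 of 12 erythroid and 3 of 7 megakaryocyte genes were at least 1.5 times more frequent there. Of the endothelial genes, *EMCN* was also counted on the list of other stem genes above. None of 12 cell cycle genes passed either way.

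Clusters built without the 8 genes, *CD34* and the other stem genes allowed the same ratio within each cluster. Most CD34-positive cells were in 3 clusters, cluster 1 (2371 cells, led by *ADCYAP1*, *IL1RL1* and *GATA2*, unnamed), cluster 3 (1349 cells, led by *CYP1B1*, *HOPX* and *CD3E*, unnamed) and cluster 5 (798 cells, erythroid-like, also with 8 megakaryocyte markers). At equal depth, 48.9%, 48.1% and 55.3% of their cells were CD34-positive, against 6.82% of the macrophage-like cluster 2 and 15.6% of the neutrophil-like cluster 4.

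Within clusters the ratio of *MECOM* was 0.924 (0.730 to 1.17) in cluster 1, 1.97 (1.40 to 2.77) in cluster 3 and 1.04 (0.683 to 1.60) in cluster 5. The *MECOM* ratio of 1.61 over all cells was thus matched or passed within cluster 3 only, of these 3. The leading genes of cluster 3 included the endothelial gene *EMCN* beside the lymphoid genes *CD3D* and *CD3E*. The *SPINK2* ratio was 1.42 (1.15 to 1.77) in cluster 1, 1.46 (1.32 to 1.62) in cluster 3 and 1.94 (0.689 to 5.44) in cluster 5. It was 3.18 (2.20 to 4.59) in the macrophage-like cluster 2, 1.91 (1.38 to 2.63) in the neutrophil-like cluster 4 and 5.88 (1.92 to 18.1) in cluster 6, from 6 of 31 CD34-positive cells. The *SPINK2* interval thus lay above 1 in 5 of the 7 larger clusters. The *AVP* ratio was 1.49 (1.21 to 1.83) in cluster 1 and 1.52 (0.993 to 2.33) in cluster 3. The *MLLT3* ratio was 1.41 (1.11 to 1.79) in cluster 1, 1.48 (1.03 to 2.15) in cluster 3 and 1.22 (0.826 to 1.81) in cluster 5. *MSI2* was less frequent in CD34-positive cells of cluster 1, 45.8% against 52.3%, with a ratio of 0.876 (0.806 to 0.951), and more frequent in cluster 5, with 1.53 (1.24 to 1.90). *HMGA2* had a ratio of 1.32 (1.02 to 1.72) in cluster 3 and 2.17 (1.28 to 3.68) in the macrophage-like cluster, although its ratio over all cells was 1.03.

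**Figure D2:**
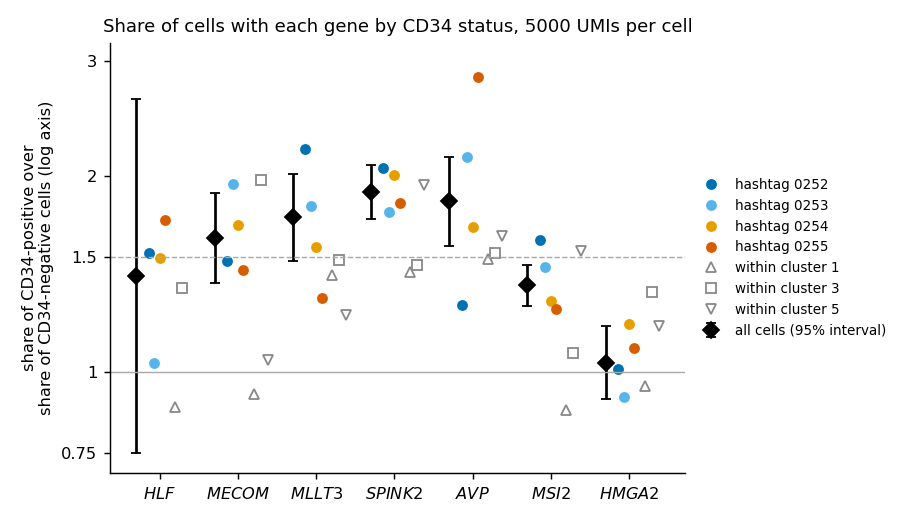
Share of CD34-positive cells with each gene divided by that of CD34-negative cells, at 5000 UMIs per cell and on a log axis. Black diamonds are all cells with 95% intervals, colored points single hashtags and open gray symbols clusters 1, 3 and 5; solid and dashed lines mark ratios of 1 and 1.5. MECOM falls to 0.924 and 1.04 within clusters 1 and 5 and reaches 1.97 within cluster 3, and the HLF interval spans 1. HLF has no ratio in cluster 5, where 1 CD34-positive and 0 CD34-negative cells held it, and CRHBP is not drawn because 2 hashtags had no CD34-positive cell with it.

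Several stem cell genes were seldom captured together. *HLF*, *MECOM*, *MLLT3* and *CD34* were all present in 1 of 7482 cells at equal depth, 0.0134% (0.000338 to 0.0744), where the product of the 4 shares gives 0.0813 cells. That cell carried hashtag 0255. At all UMIs 21 of 7550 cells held all 4, or 0.278% (0.172 to 0.425), where the product gives 4.74 cells. These 21 cells were divided as 6, 1, 8 and 6 over hashtags 0252 to 0255. Without *CD34*, 25 cells held *HLF*, *MECOM* and *MLLT3*, so 4 of them had no *CD34* UMI. Products at all UMIs count cells of unequal depth, in which any genes occur together more often.

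*MECOM*, *MLLT3* and *CD34* occurred together in 27 cells at equal depth (product 15.2), and with *SPINK2* in addition in 7 cells (product 2.72). *SPINK2*, *AVP* and *CD34* occurred together in 81 cells (product 35.2), which were divided as 16, 19, 26 and 20 over hashtags 0252 to 0255. Each of these counts lay above its product.

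Pairs of members differed in how far they passed their product at equal depth. *AVP* and *MSI2* shared 228 cells, 1.38 times the product, and *MECOM* and *MSI2* shared 224 cells, also 1.38 times. *SPINK2* and *AVP* shared 135 cells, 1.32 times, and *MECOM* and *MLLT3* 58 cells, 1.32 times (58 against 44.1). *MLLT3* and *SPINK2* met in 107 cells, 1.02 times the product. *SPINK2* and *MSI2*, the 2 most abundant members, were the pair that fell furthest below among those with over 30 shared cells, with 361 cells against 386.4, or 0.934 times. *HLF* met *MECOM* in 7 of its 40 cells (product 3.01) and *SPINK2* in 8 (product 7.14).

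**Figure D3:**
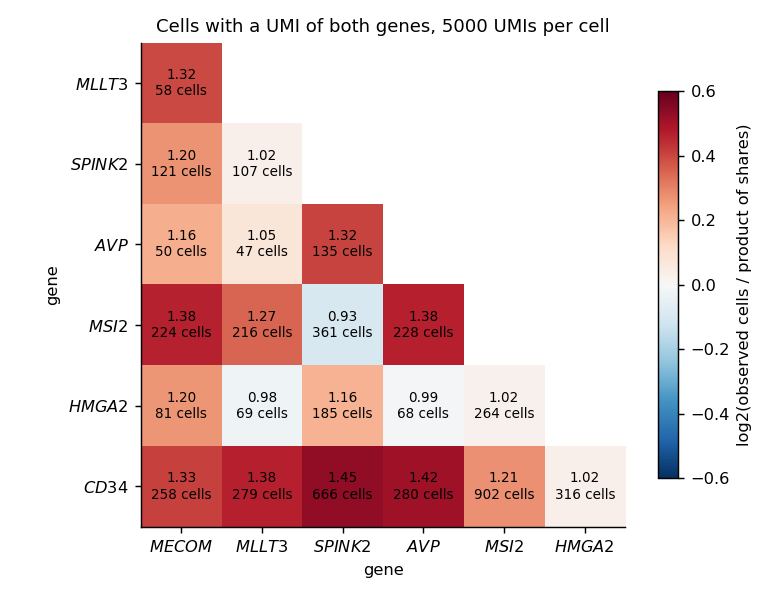
Cells with a UMI of both genes at 5000 UMIs per cell, for the 6 genes with at least 200 UMIs and CD34. Each square gives the observed number over the product of the 2 shares and the number of cells, with red for more and blue for fewer than the product on a log2 color scale; SPINK2 and MSI2 stand at 0.93 and SPINK2 and CD34 at 1.45.

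Counted per cell, CD34-positive cells held on average 1.05 of the 8 genes at equal depth and CD34-negative cells 0.704. At least 3 of the 8 were found in 6.28% (5.37 to 7.28) of CD34-positive and 3.04% (2.58 to 3.56) of CD34-negative cells, and no cell held more than 5. None of the 8 was found in 30.5% of CD34-positive cells. By hashtag the share with 3 or more was 2.98%, 2.52%, 4.90% and 6.97% for 0252 to 0255, although CD34-positive cells were most frequent in hashtag 0252 (39.7%) and least frequent in hashtag 0255 (29.4%).

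By hashtag, *SPINK2* and *AVP* differed by at least 1.5 times between the highest and the lowest hashtag, 2 of the 6 genes with at least 200 UMIs. Of all 12272 genes tested, 1534 did so, a background of 12.5%. Each hashtag is 1 pool of wells, so culture, pool and antibody cannot be told apart, nor can fewer cells of a type and less RNA per cell in the summed values.

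*SPINK2* stood at 57.8, 38.7, 71.5 and 85.0 CPM in hashtags 0252, 0253, 0254 and 0255. Its 4 CPM intervals did not overlap, the highest was 2.20 times the lowest, and 3.80% of the genes tested had a larger ratio. At equal depth *SPINK2* was found in 16.8% (15.2 to 18.5), 12.6% (11.2 to 14.2), 20.1% (18.3 to 22.0) and 23.4% (21.3 to 25.6) of their cells. These share intervals overlapped between hashtags 0252 and 0254 and between 0254 and 0255. Without the 5 highest cells of each hashtag the *SPINK2* values were 55.4, 36.9, 68.5 and 81.2. *AVP* stood at 21.2, 18.2, 28.6 and 25.5 CPM, a ratio of 1.57, and hashtags 0254 and 0255 had overlapping intervals. At equal depth *AVP* was found in 7.19% (6.13 to 8.38), 5.65% (4.68 to 6.76), 9.58% (8.27 to 11.0) and 8.46% (7.12 to 9.96) of cells. The share interval of hashtag 0252 overlapped those of all the other hashtags. Among the 736 cells with at most 10% mitochondrial UMIs *AVP* was lowest in hashtag 0255, with hashtag 0254 at 2.16 times its level. *MSI2* stood at 65.1, 66.2, 94.4 and 95.3 CPM, a ratio of 1.46. Hashtags 0252 and 0253 formed a low pair and 0254 and 0255 a high pair, with overlap inside each pair and none between them.

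*HLF* followed the same division, with 0.792, 0.650, 1.56 and 1.58 CPM from 32, 25, 54 and 45 UMIs. The *HLF* intervals overlapped within each pair and not between hashtags 0252 (0.542 to 1.12) and 0254 (1.17 to 2.03). At equal depth *HLF* was found in 4, 6, 18 and 12 cells of hashtags 0252 to 0255. These were 0.189% (0.0516 to 0.484), 0.303% (0.111 to 0.658), 0.979% (0.581 to 1.54) and 0.775% (0.401 to 1.35) of cells. The share interval of hashtag 0253 overlapped those of 0254 and 0255, and that of 0252 overlapped 0255 but not 0254. *MECOM* (17.0, 15.3, 18.8 and 17.8 CPM), *MLLT3* (19.2, 16.3, 16.5 and 17.5 CPM) and *HMGA2* (31.6, 27.1, 25.2 and 28.5 CPM) varied by 1.18 to 1.25 times, and every step between neighbors in their order had overlapping intervals. For each of the 3 genes the interval of the highest hashtag lay above that of the lowest. Stromal-like cells held 70, 53, 99 and 150 of the 1276, 1043, 874 and 812 *HMGA2* UMIs of hashtags 0252 to 0255. Their part in the order of *HMGA2* was not tested.

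*CRHBP* had 48 UMIs in hashtag 0252 and 11, 13 and 7 in the others, or 1.19, 0.286, 0.375 and 0.245 CPM. Its height in hashtag 0252 rested on few cells. In the stromal-like cluster 2 cells held 20 and 7 *CRHBP* UMIs, with 82 and 67 UMIs of the collagen gene *COL1A1* and none of *CD34*. Without the 5 highest cells of each hashtag *CRHBP* stood at 0.322, 0.130, 0.202 and 0.0701 CPM.

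**Figure D4:**
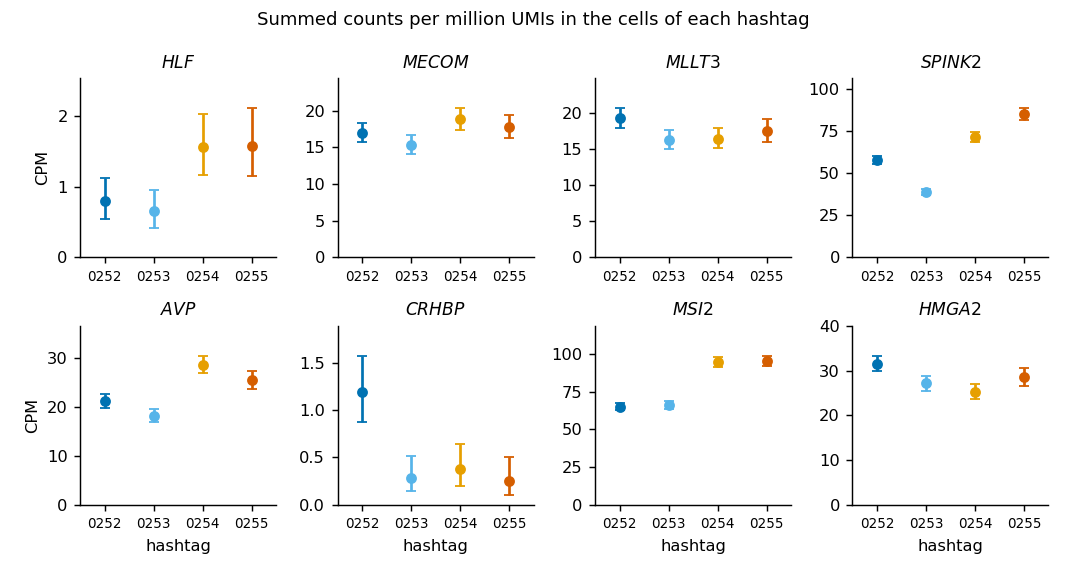
CPM of each of the 8 genes in the cells of hashtags 0252, 0253, 0254 and 0255, on linear axes from 0 with exact 95% Poisson intervals of the summed UMIs. The CPM intervals of SPINK2 are apart in all 4 hashtags, from 38.7 to 85.0 CPM, but some of its share intervals at equal depth overlap. HLF, AVP and MSI2 have lower CPM in 0252 and 0253 than in 0254 and 0255. For HLF and AVP some share intervals at equal depth overlap across this division. In 0252, 2 cells with 20 and 7 UMIs hold much of the CRHBP value.

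The hashtags also differed in their cells, and the part of this in the values above was not tested. Cluster 1 held 24.4%, 22.9%, 42.8% and 38.2% of the cells of hashtags 0252 to 0255, and the neutrophil-like cluster 22.8%, 25.6%, 6.82% and 6.05%. The summed neutrophil list stood at 4478, 4770, 1457 and 1280 CPM, the megakaryocyte list at 442.3, 435.5, 221.6 and 193.1, and the mast, basophil and eosinophil list at 450.3, 521.3, 290.9 and 229.3. The lymphoid list stood at 230.8, 276.2, 506.9 and 658.3 CPM, with 2 of its 12 genes at 0. It was thus high in the hashtags in which *MSI2*, *SPINK2* and *HLF* were high. *LTB* and *NKG7* had the most UMIs of this list, 25485 and 12992 in all cells. Both were less frequent in CD34-positive than in CD34-negative cells, with ratios of 0.656 and 0.537. The erythroid list stood at 910.3, 1159, 1327 and 582.4 CPM, the macrophage list at 461.3, 865.3, 402.2 and 369.6, the stromal list at 76.5, 63.2, 144.0 and 308.9, and the endothelial list at 37.7, 40.5, 30.6 and 26.5. Values were therefore also read within clusters. In cluster 1, *MSI2* stood at 100.8, 122.2, 156.4 and 171.1 CPM and *AVP* at 30.5, 31.0, 44.8 and 51.6 CPM, so that within this cluster both were higher in hashtags 0254 and 0255. In other clusters the division was kept in some cases and not in others. *AVP* stood at 11.0, 10.9, 17.0 and 10.8 CPM in cluster 3, with hashtag 0255 lowest, and at 27.4, 16.3, 34.2 and 30.0 CPM in the neutrophil-like cluster 4. *MSI2* stood at 50.02, 48.7, 55.2 and 65.0 CPM in cluster 3, but at 36.1, 32.8, 36.4 and 30.5 CPM in cluster 4 and at 88.8, 93.7, 82.9 and 83.3 CPM in the erythroid-like cluster 5. *HLF* stood at 1.10, 0.761, 2.27 and 2.69 CPM in cluster 1, from 12, 7, 33 and 29 UMIs. In cluster 3 it stood at 1.63, 1.44, 1.87 and 1.61 CPM, from 11, 7, 15 and 13 UMIs. *SPINK2* in cluster 3 stood at 211.8, 146.7, 193.3 and 208.6 CPM, where hashtag 0253 remained lowest but hashtag 0252 was no longer below 0254 and 0255. Cluster 3 itself held 15.6%, 11.7%, 20.8% and 25.3% of the cells of the 4 hashtags.

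Across clusters the 8 genes fell into different patterns. *SPINK2* was concentrated in cluster 3, with 194.1 CPM (188.9 to 199.4) against 35.7 CPM in cluster 1, the next highest of the clusters with at least 50 cells, and was present in 53.1% of its cells at equal depth. This cluster held 61.6% of all *SPINK2* UMIs. With another starting seed the highest cluster stood at 184.1 CPM. At Leiden resolution 0.18 no separate cluster of this kind formed. *SPINK2* was then highest, at 105.3 CPM, in a cluster of 2797 cells named macrophage-like by 7 of 10 markers. In the erythroid-like cluster 5 *SPINK2* stood at 3.97 CPM and was present in 2.14% of cells at equal depth, and in the stromal-like cluster 7 it was present in 1 of 89 cells. The part of free RNA in such low shares was not tested. Strong *SPINK2* cells also lay elsewhere: the highest cell, with 29 UMIs, and the third highest, with 23, belonged to the macrophage-like cluster and held 0 and 1 *CD34* UMIs.

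*MSI2* was highest in cluster 1, with 139.7 CPM (136.2 to 143.1) and 49.1% of cells at equal depth. It was lowest in the macrophage-like cluster, with 27.4 CPM and 12.8%. *MECOM* was highest in clusters 5 and 1, with 24.0 (21.7 to 26.5) and 22.8 (21.4 to 24.2) CPM, followed by cluster 3 with 18.6, and lowest in the macrophage-like cluster with 5.54. *MLLT3* was highest in cluster 5, with 29.0 CPM (26.5 to 31.7), and stood at 23.4 in cluster 1, 16.5 in cluster 3, 9.24 in the macrophage-like and 8.84 in the neutrophil-like cluster. By CPM, cluster 5, erythroid-like but also with 8 megakaryocyte markers, thus held as much *MECOM* as cluster 1, and more *MLLT3*. It held 0.601 CPM of *HLF* and little *SPINK2*. At equal depth the *MLLT3* share intervals of cluster 5 (9.55% to 14.1%) and cluster 1 (9.31% to 11.8%) overlapped. The *MECOM* share intervals of clusters 5, 1 and 3 also overlapped each other at that depth.

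*HLF* was found at 1.78 CPM (1.42 to 2.22) in cluster 1 and 1.66 (1.22 to 2.22) in cluster 3, which held 51.9% and 29.5% of its UMIs. It stood at 0.205 CPM (0.0667 to 0.479) in the macrophage-like and 0.343 (0.148 to 0.677) in the neutrophil-like cluster. The *HLF* CPM intervals of clusters 1 and 3 overlapped each other and neither of those of the macrophage-like and neutrophil-like clusters. Cluster 6 stood at 1.54 CPM (0.501 to 3.598) from 5 UMIs, which overlapped clusters 1 and 3. At equal depth the *HLF* share intervals of clusters 1 and 3 began at 0.651% and 0.307%. Both overlapped that of the macrophage-like cluster (0.0729 to 0.683), and that of cluster 3 also overlapped the neutrophil-like cluster.

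*AVP* reached 131.1 CPM (118.9 to 144.1) in cluster 6, the 185 cells with *EPX*, *PRG2* and *CLC* named mast, basophil and eosinophil-like, where 32.8% of cells had it at equal depth. Cluster 1 followed with 40.2 CPM and 13.7%, and held 55.6% of all *AVP* UMIs. In the macrophage-like cluster *AVP* was present in 0.602% of cells. With all cells reduced to 5000 UMIs, those in which *AVP* had been found at full depth held 981.1 CPM of the mast, basophil and eosinophil list against 266.6 CPM in cells without, and 1219 against 986.6 CPM of the other stem genes. At least 1 UMI of the mast, basophil and eosinophil list was found in 46.9% of the cells with *AVP* and in 34.5% of those without. The small cluster 6 was not kept in every clustering. With another starting seed no small cluster led by *EPX* and *PRG2* formed, and *AVP* was highest in the neutrophil-like cluster at 43.5 CPM. There, a cluster of 2417 cells led by *ADCYAP1* and *IL1RL1*, as cluster 1 is here, passed the naming rule as mast, basophil and eosinophil-like by 3 markers (*CLC*, *CPA3* and *HDC*), where cluster 1 had 2 and stayed unnamed.

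*HMGA2* was highest in the 99 stromal-like cells of cluster 7, with 251.1 CPM (226.2 to 278), in 74.2% of cells at equal depth, and its 5 highest cells were all of this cluster. Among the blood clusters *HMGA2* ranged from 16.9 CPM in the erythroid-like to 38.9 CPM in the neutrophil-like cluster. *CRHBP* was highest in the stromal-like cluster too, with 22.3 CPM from 33 UMIs, most of them in the 2 cells named above, and no other cluster of at least 50 cells passed 0.617 CPM.

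**Figure D5:**
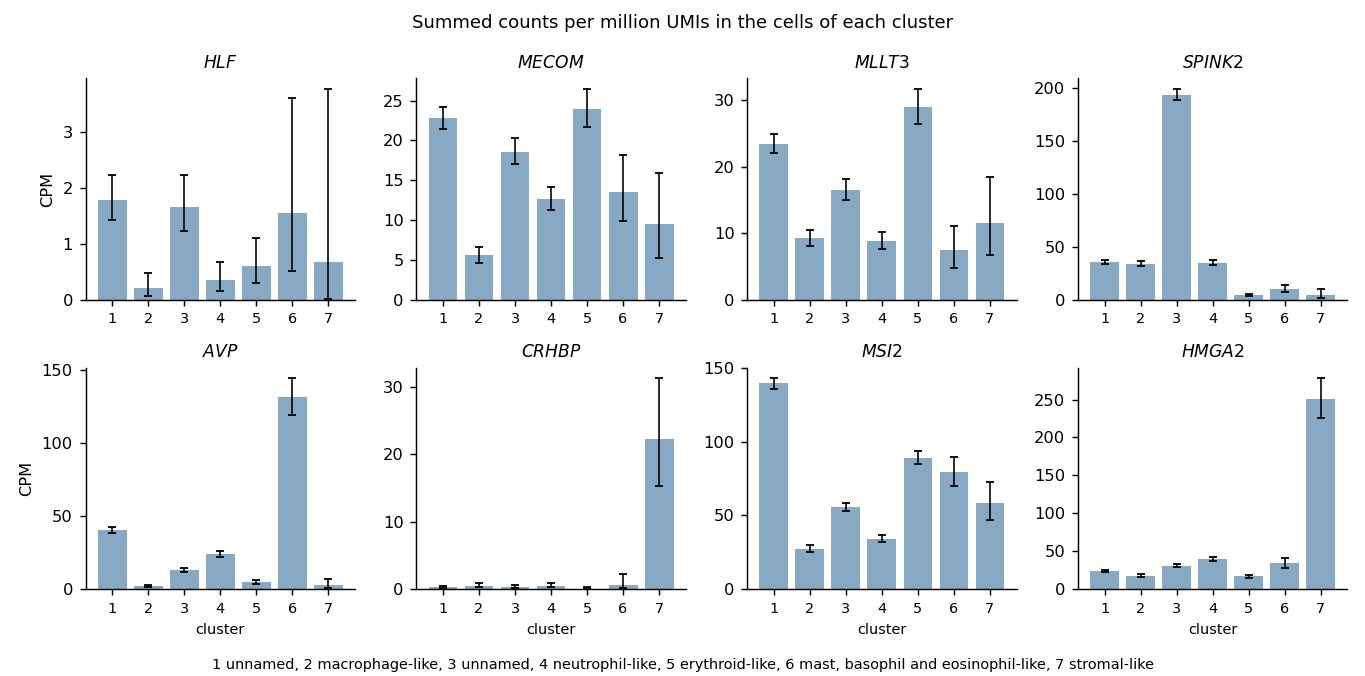
CPM of each of the 8 genes in clusters 1 to 7 as bars from 0, with exact 95% Poisson intervals; 23 cells of a shallow eighth cluster are not drawn. SPINK2 peaks in cluster 3, AVP in cluster 6, MSI2 in cluster 1, and CRHBP and HMGA2 in the stromal-like cluster 7, whereas HLF, MECOM and MLLT3 are spread over several clusters.

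Similarity of pattern was described by Pearson's correlation of log2(CPM + 1) over the 23 cluster and hashtag groups with at least 50 cells, which share 1 library and whose points are not independent. *MECOM* was most like *LAPTM4B* (0.941), *PPT2* (0.919) and *ANGPT1* (0.919), and *MLLT3* most like *TMEM163* (0.948), *RAB27B* (0.932) and *SCARF1* (0.930). *MECOM* and *MLLT3* had 0.808 with each other, and 0.901 and 0.774 with *CD34*. *SPINK2* was most like *PEBP1* (0.954), *PRCC* (0.927) and *RPS15* (0.925), and *AVP* most like *PRSS57* (0.95), *IGLL1* (0.920) and *IKZF2* (0.913). *MSI2* was most like *RP11-558F24.4* (0.949), *FAM64A* (0.942) and *EMID1* (0.939), and *HMGA2* most like *FAM84B* (0.951), *APP* (0.913) and *LAMC1* (0.913). *SPINK2* had 0.0784 with *CD34* by this measure although both were captured together in single cells 1.45 times as often as the product of their shares. Of the stromal-like cluster only the 59 cells of hashtag 0255 entered, with *HMGA2* at 216.1 CPM against 43.3 CPM in the next highest group. Of cluster 6 only hashtags 0252 and 0253 entered, with *AVP* at 124.8 and 129.7 CPM. The weight of these groups in the correlations was not tested.

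The cells with several UMIs of a nuclear regulator were also looked at singly. Of the 3 *MECOM* cells with 6 UMIs, 1 carried 27 UMIs of *CDH5*, 19 of *CLDN5* and 47 of *KDR*, genes of endothelial cells. That cell belonged to cluster 3 and held none of the leukocyte gene *SPN*. The other *MECOM* cells with 6 UMIs held none of *CDH5*, *CLDN5* and *KDR*. The *HLF* cell with 5 UMIs held 2 *CD34* UMIs and 1 of *MLLT3*, and none of *MECOM* or *SPINK2*. With all cells reduced to 5000 UMIs, the 130 cells in which *HLF* had been found at full depth held 75.4 CPM of the endothelial list. Cells without *HLF* held 31.7 CPM, and the values were 50.2 against 26.5 for *MECOM* and 52.0 against 25.7 for *MLLT3*. For *SPINK2* and *AVP* they were 27.7 against 34.9 and 28.6 against 33.3. *ESAM* weighed most in this list, with 3367 UMIs in all cells, against 186, 146 and 158 of *CDH5*, *CLDN5* and *KDR*. Which genes of the list made these differences was not tested. Other lists differed too. The macrophage list stood at 126.2 against 677.5 CPM for *HLF*, 166.0 against 833.9 for *MECOM* and 302.7 against 792.9 for *MLLT3*. It was also lower with *SPINK2* (171.1 against 930.8) and *AVP* (102.9 against 802.8). The erythroid list was higher with *MLLT3* (1395 against 801.4) and *MECOM* (1099 against 904.4) and lower with *HLF* (326.2 against 963.7).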

How the data were processed

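Nonadherent day 5 cells from 4 coating conditions of iPS11 EHT cultures were measured in 1 hashed droplet library, with an mRNA library and a hashtag library of the same cells. The authors aligned reads to hg19 with Cell Ranger 6.0.1, per the labels, and deposited unnormalized UMI counts for 32738 genes and 4 hashtags, with a call for each barcode, and all 10836 barcodes were in both tables. No column of per-sample values was set aside.

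Barcodes called for 1 hashtag were kept at up to 36000 UMIs, 6000 genes and 18% mitochondrial UMIs. Barcodes called doublet or negative were left out, and no further doublet caller was run, so 2 cells of the same hashtag in a droplet could remain. Each cell was thinned without replacement to 5000 UMIs (numpy 2.4.6, seed 1). Shares carry exact Clopper-Pearson intervals, CPM exact Poisson intervals and ratios of shares log intervals, all at 95%. They cover counting error only, since cells of 1 library are not replicates. A gene was called at a ratio of 1.5 and needed 200 UMIs.

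Clusters came from 2364 variable genes after leaving out the 8 genes, *CD34* and the other stem genes, with S and G2/M scores regressed out, 40 principal components, 15 neighbors and Leiden resolution 0.3 (scanpy 1.11.5, leidenalg 0.10.2). A cluster was named from at least 3 markers that were at least 2 times higher there and found in 10% of its cells. Of the marker lists, *ITGB3* and *LSP1* were listed on 2 rows each and left out of list sums and ratios, while either row could count in naming, and *PECAM1* and *TPSB2* were not matched by symbol. Thinning was tested on simulated cells.

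All 8 genes and *CD34* are named, as are listed genes past a ratio of 1.5, the 3 highest and lowest of each stem gene list, and the 3 genes of most similar pattern. Cells and genes examined singly were chosen after their values were seen. The 8 genes and all lists were chosen with earlier results of these data known.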

Additional observations from a re-analysis of the deposited data

Results flagged for a closer look

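The 809 barcodes called negative for every hashtag, which no comparison above uses, held the same genes above the limit that a count of 0 allows, 0.235 CPM. *MSI2* stood there at 151.3 CPM (144.6 to 158.2), against 78.6 CPM in the cells called for 1 hashtag, and *AVP* at 43.1 CPM (39.6 to 46.8) against 23.1. *MECOM* stood at 25.7 CPM against 17.1 and *MLLT3* at 22.4 against 17.4, with intervals that did not overlap. *SPINK2* was lower there, at 34.9 CPM (31.7 to 38.3) against 61.4. *HMGA2* stood at 25.6 CPM (22.9 to 28.5) against 28.2, and *HLF* at 1.18 CPM (0.658 to 1.94) against 1.10, both with overlapping intervals. *CRHBP* had no UMI in these barcodes. *CD34* stood at 179.2 CPM against 116.5.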

How the results depend on the processing

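Each value was recomputed under the alternatives, 143 values in all. Of 16 recomputed counts of genes or cells, 14 were within 1.5 times the count given above, and of the values of single genes 89 stayed and 38 moved, either out of the interval of the reported share or ratio or, for levels by hashtag and cluster, by over 1.5 times. The number of cells with *HLF*, *MECOM*, *MLLT3* and *CD34* rose from 1 to 5 of 7004 cells at 10000 UMIs and to 21 of 7550 without thinning, and was 1 with another seed. The number thus rose with depth. The genes at least 1.5 times more frequent in CD34-positive cells numbered 3 to 5 of 6 under every alternative: *MSI2* joined at 10000 UMIs (1.51) and without thinning (1.61), and *MLLT3* fell to 1.21 at a limit of 10% mitochondrial UMIs, which left 736 cells. Under that limit *MECOM* stood at 2.89 and *SPINK2* at 3.85. With CD34-positive cells at 2 UMIs or more, *HLF* had a ratio of 0.348, which turned its direction from the reported 1.40, whereas it was 2.65 at 10000 UMIs, 2.14 without thinning, 2.27 with another seed, 2.09 under the 10% limit and 1.63 with no limit on UMIs or genes. Between hashtags, 2 to 3 of 6 genes passed 1.5 times, *MLLT3* in addition (2.45) among the 736 cells, where *AVP* was lowest in hashtag 0255 and *MECOM* in hashtag 0254; the cause was not tested. *AVP* in its highest cluster fell from 131.1 to 43.1 CPM at resolution 0.18. It stood at 43.5 CPM with another seed and 63.1 CPM with the 8 genes kept in the clustering. *SPINK2* fell from 194.1 to 105.3 CPM at resolution 0.18, with 5 clusters in place of 7, and its highest cluster was then named macrophage-like. No paired analysis was possible because the mRNA was sequenced as 1 library with no replicates. With 1 library, differences between wells, hashtag pools or cultures could not be measured, and the low counts of *HLF* and *CRHBP* limit what can be said of them.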

Other observations

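In the 834 barcodes called as hashtag doublets within the same limits, *SPINK2* stood at 60.3 CPM, *AVP* at 21.2, *MSI2* at 73.5, *HMGA2* at 28.2 and *MECOM* at 18.3, each with an interval that overlapped that of the cells called for 1 hashtag. *MLLT3* stood at 14.6 CPM (12.9 to 16.5), below their 17.4 (16.7 to 18.1), and *CRHBP* at 1.08 CPM from 20 UMIs in 8 barcodes.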
